A study of Mus musculus with 384 samples.

Results

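The 32 libraries labelled PFC (prefrontal cortex) were described here, of 380 mouse brain libraries with values and 384 in the labels. They were the samples whose label names the region PFC. The labels cross a status (MS or Co) with an injection term (inject or naive), and each of the 4 label groups held 8 mice. All were male Balb/c mice. The study reared pups either with sparse bedding and nest material (LM) or with brief daily handling (EH), and in adulthood housed them with an ovariectomized female (OX) or exposed them to chronic social defeat (CD). Neither the labels nor the study's text ties MS, Co, inject and naive to these conditions, so the label names are used as they stand and nothing is said of rearing or defeat. The labels give postnatal day 9 as the age, whereas the design text places the collection in adulthood. The mice with MS labels carried numbers from 79 to 109 and those with Co labels numbers from 227 to 267, so label status and whatever these numbers mark cannot be told apart.

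The panel held 69 assays, 52 of them orthologues of human genes whose response to glucocorticoids varies with genetic variants. Glucocorticoids, the stress hormones of the adrenal cortex, act through the glucocorticoid receptor (GR), a transcription factor encoded by *Nr3c1* that is held ready for its ligand by chaperones of the HSP90 group. FKBP5, a co-chaperone, lowers the ligand binding of the receptor and is itself induced by it. The prefrontal cortex takes part in the top-down control of the stress response. Each value is the number of reads of an assay divided by the size factor of its library, and is called a normalized value. In punches of tissue, fewer cells of a type and less RNA per cell cannot be told apart.

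The libraries held 24672 to 166743 reads, with a median of 94437. The number of reads did not differ detectably by status (mean 90952 ± 20138 in MS and 94573 ± 39039 in Co, SD, n = 16 each, two-sided permutation test with 100000 resamples, p = 0.748) or by injection (92182 ± 32722 in inject and 93344 ± 29413 in naive, p = 0.917). The limit that a count of 0 allows, 3 reads, corresponded to normalized values of 2.74 to 15.2, and this limit covers counting error only. Between 4 and 18 assays per library were at 0, with a median of 7. Libraries with fewer reads had more assays at 0 (Pearson's r = -0.768 and Spearman's rho = -0.706 over 32 libraries, permutation p = 0.0002 for each, the smallest that 10000 resamples can give; a single relation was computed). Without the 2 libraries farthest from the median depth, r was -0.591 (permutation p = 0.001). The 3 libraries under 50000 reads were all Co (mice 267 and 237 of Co inject and 241 of Co naive), with limits of 15.2, 9.7 and 11.8 for a count of 0. The shallowest library, mouse 267 of Co inject with 24672 reads, had 18 assays at 0 and the lowest median correlation with the other PFC libraries (0.808). Within label groups, pairs of libraries correlated at 0.746 to 0.968 across assays, and 0 of 112 pairs were identical.

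**Figure D1:**
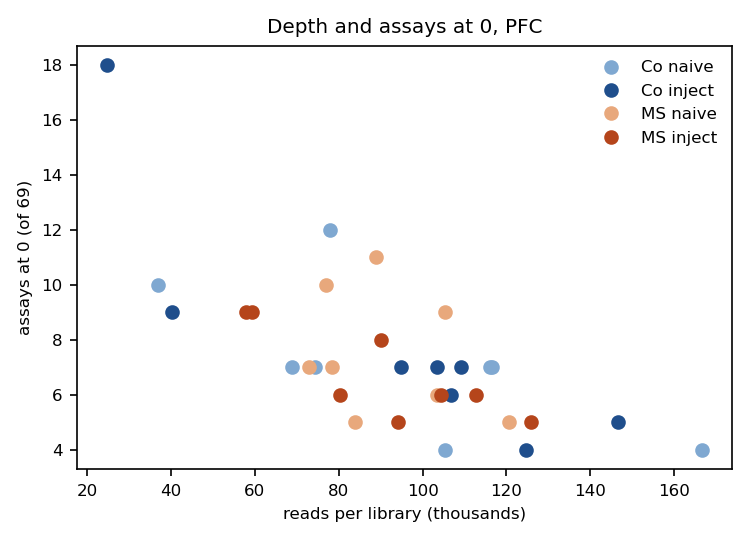
Reads per PFC library (x axis, in units of 1000 reads) against the number of assays at 0 out of 69 (y axis), 1 point per library, coloured by label group. The library with 24672 reads has 18 assays at 0, and both the shallowest libraries (under 50000 reads) and the deepest belong to Co.

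The panel holds no marker of cortical neurons, so the region label could not be checked directly. Of the 32 libraries, 4 were closest to the mean of the other PFC libraries, whereas 14 were closest to the mean of AMY (amygdala), 9 to that of BNST (bed nucleus of the stria terminalis), 3 to that of vCA1 and 2 to that of PVN. *Anxa2*, which reached 21258 in libraries labelled vDG, 3885 in Pit and 2803 in dDG, ran from 2.95 to 328 in PFC.

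The highest medians in PFC were those of *Fth1* (ferritin heavy chain, which stores iron; 36965, range 20091 to 61684), *Hsp90aa1* (the inducible HSP90 chaperone; 18518, range 9934 to 28476) and *Rps12* (a protein of the small ribosomal subunit; 16437, range 11736 to 24127). These are levels per assay and are not corrected for length or primer efficiency. At the other end, *Nuak2* was at 0 in all 32 libraries. *Tnf*, *Lcn2*, *Lrrc25*, *Fan1* and *Zfp553* also had a median of 0, with highest values of 20.9, 260, 34.6, 32.2 and 45.3.

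MS and Co were compared first. *Lcn2*, which encodes lipocalin 2, an iron-siderophore binding protein released in acute inflammation, showed the largest difference of the 69 assays. In the 8 MS inject libraries its normalized values were 65.5, 17.1, 0, 0, 260, 157, 0 and 12.4. In the 8 MS naive libraries they were 0, 41.8, 0, 0, 6.36, 48.3, 0 and 23.6. Thus 9 of 16 MS libraries had more than 3 reads of *Lcn2*, and the other 7 had none. Among the 16 Co libraries, 13 had no read (3 of them the libraries under 50000 reads, whose limits exceed the lowest MS value above 0, 6.36), 2 had 1 read each (1.23 and 1.55), and 1, mouse 243 of Co inject, had a value of 19.6 (17 reads). The ranges overlapped from 0 to 19.6, which takes in the MS values 6.36, 12.4 and 17.1. On the log2(value + 1) scale, MS exceeded Co by 2.56 (SE 0.79, 95% interval 0.95 to 4.18). The limma p adjusted by Benjamini-Hochberg over the 69 assays was 0.206, above the threshold of 0.1. A fold on this scale understates the change of low genes and depends on the pseudocount, and the *Lcn2* difference was 1.24 at a pseudocount of 10 and 3.87 at 0.1 (adjusted p = 0.27 and 0.345).

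The assay therefore did not pass in the comparison of means, and 0 of 69 assays (0%) did. *Lcn2* was the 1 assay with an unadjusted p under 0.05. With 5 principal components of the residuals as covariates it passed at an adjusted p of 0.0119, and these components reduce the residual spread by construction. Leaving out mouse 243 of Co inject brought *Lcn2* to an adjusted p of 0.0678, and leaving out mouse 83, 85 or 97 of MS inject, each without a read of *Lcn2*, to 0.0739, 0.074 and 0.0739. Over all 32 omissions the difference ran from 2.25 to 2.83 and the adjusted p from 0.0678 to 0.416. Without the 3 libraries under 50000 reads the difference was 2.45 (adjusted p = 0.25).

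The spread within label groups, measured as the absolute deviation from the group median, was compared in the same way. *Lcn2* varied more in MS than in Co by 2.09 on the log2 scale (SE 0.46, limma, adjusted p = 0.00658), and was the 1 assay of 69 called (1.45%). With 13 of 16 Co libraries at 0 and 2 more at 1 read, the Co deviations were held near 0 by the floor of the assay, so this call restates the difference in level and is no separate result. By injection, 0 of 69 assays (0%) passed. *Fkbp5* came closest, with deviations 1.37 smaller in inject than in naive on the log2 scale (value -1.37, SE 0.42, adjusted p = 0.207). It was at 0 in 5 naive and 0 inject libraries, so this value is not separate from those counts.

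The same mice were read for *Lcn2* in AMY and BNST. More than 5 normalized units were found in 7 of 16 MS and 5 of 16 Co libraries of AMY, and in 4 of 16 MS and 6 of 15 Co libraries of BNST. The MS minus Co difference was 0.67 on the log2 scale in AMY and -0.83 in BNST. The difference in PFC exceeded the mean of both by 2.64 (95% interval 0.46 to 4.83, limma, adjusted p = 0.401). Of 32 mice, 10 were above 5 in PFC and 12 in AMY, with 3 in both; of 31 mice with a BNST library, 9 were above 5 in PFC and 10 in BNST, with 2 in both. Mouse 93, with 260 in PFC, was at 0 in AMY and at 23.8 in BNST. Mouse 267, at 0 in PFC with a limit of 15.2, had 257 in AMY.

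**Figure D2:**
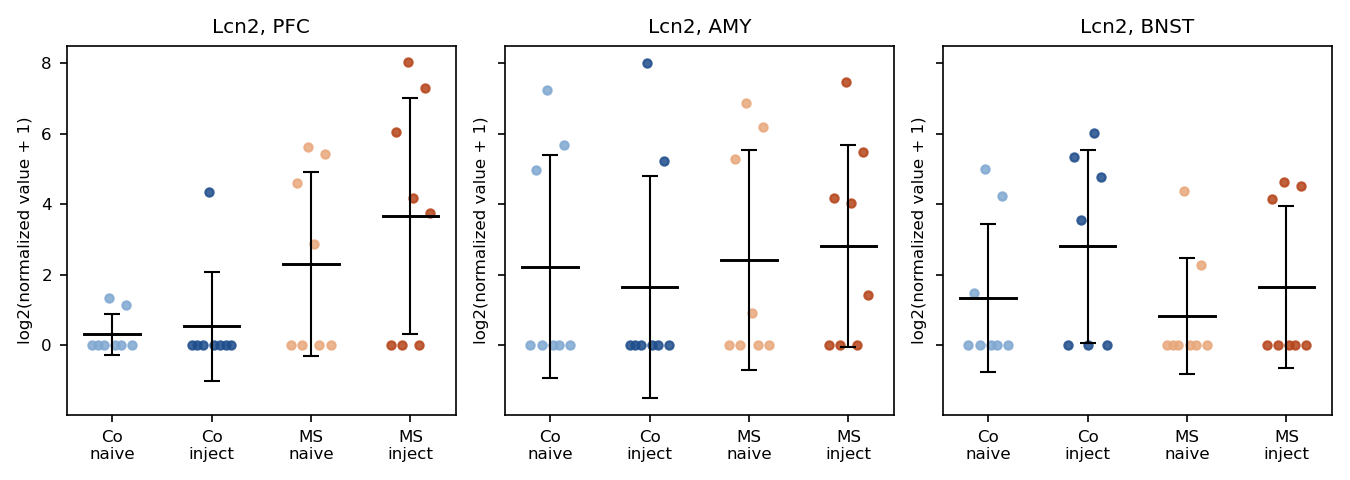
Log2(normalized value + 1) of *Lcn2* (y axis) in the 4 label groups (x axis) of PFC, AMY and BNST, 1 point per mouse, with the mean (horizontal line) and SD (bar). In PFC, 9 of 16 MS points and 1 of 16 Co points lie above 5 normalized units, while in BNST the counts are 4 of 16 and 6 of 15.

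Markers of immune and vascular cells were read beside *Lcn2*. The summed value of *Zap70*, *Lrrc25*, *Tnf* and *Slc7a7* had a median of 47.3 in MS (0 to 93) and 59.5 in Co (0 to 133), and *Tnf* was at 0 in all 16 MS libraries and in 15 of 16 Co libraries. The vascular or meningeal markers *Anxa2* and *Thbs1* summed to a median of 276 in MS inject (194 to 392), 155 in MS naive (86 to 391), 150 in Co inject (104 to 270) and 159 in Co naive (94.3 to 241). Their part in the *Lcn2* values was not tested.

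The other assays with the lowest p by status all had lower means in MS, and none passed. *Cct7*, a subunit of the cytosolic chaperonin, had a median of 1553 in MS (688 to 2188) and 1893 in Co (914 to 2252), a log2 difference of -0.24 (SE 0.13). *Nedd4*, a ubiquitin ligase, had medians of 1064 and 1231 (-0.19, SE 0.10). *Rela*, the p65 subunit of NF-kB, had medians of 153 and 187 (-0.95, SE 0.53), with 1 MS naive library at 0. *Fth1* had medians of 34537 in MS and 41414 in Co (-0.24, SE 0.13). *Gart*, an enzyme of purine synthesis, had medians of 145 and 165 (-0.32, SE 0.19). For *Fkbp5* the medians were 44.7 and 71 (-1.28, SE 0.77). The ranges of MS and Co overlapped in each, and the limma adjusted p was 0.892 for all 6. For *Cct7*, *Nedd4*, *Rela* and *Fth1*, 12 of 16 MS libraries lay below the Co median. After rescaling to the same total the differences were -0.13 for *Cct7*, -0.07 for *Nedd4*, -0.12 for *Fth1* and -0.21 for *Gart*, and with separate ranges as covariates they were -0.09 for *Cct7* and -0.0068 for *Nedd4*. Without mouse 87 of MS naive, *Rela* was at -0.51.

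Inject and naive were compared next, and 0 of 69 assays (0%) passed. An unadjusted p under 0.05 was found for 6 assays, 3 higher and 3 lower in inject. *Vhl*, the subunit of a ubiquitin ligase that marks hypoxia-inducible factors for degradation, had the lowest p. It ranged from 60.8 to 480 in inject (median 303) and from 167 to 586 in naive (median 424), and 14 of 16 inject libraries lay below the naive median. The log2 difference was -0.58 (SE 0.20, 95% interval -0.997 to -0.17, limma, adjusted p = 0.375). Without mouse 107 of MS naive, the lowest naive library, it was -0.67 and the adjusted p 0.0848. Over all 32 omissions the *Vhl* difference ran from -0.67 to -0.45 and the limma adjusted p from 0.0848 to 0.573. Only 1 of the 32 was under 0.1.

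Higher in mean were *Pitpnm2*, *Abhd5* and *Fkbp5*. *Pitpnm2*, a phosphatidylinositol transfer protein, had a median of 386 in inject (227 to 894) and 260 in naive (112 to 570), a log2 difference of 0.63 (SE 0.24, adjusted p = 0.375). *Abhd5*, the activator of adipose triglyceride lipase, had a median of 133 in inject (43.7 to 349) and 57.2 in naive (0 to 246), a difference of 1.45 (SE 0.57, adjusted p = 0.375). In both, 15 of 16 inject libraries lay above the naive median. The *Abhd5* difference fell to 0.93 without the 3 libraries under 50000 reads, one of which, mouse 241 of Co naive, was at 0.

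*Fkbp5* is annotated at chr17:28399094-28517527 on the minus strand (GRCm38). Its median was 64 in inject (2.05 to 122) and 30.1 in naive (0 to 106), a log2 difference of 1.66 (SE 0.77, 95% interval 0.09 to 3.23, limma, adjusted p = 0.488). The size depended on the pseudocount, with 0.81 at a pseudocount of 10 and 2.66 at 0.1, and the *Fkbp5* difference by status was -0.67 and -1.92 at these settings. All 16 inject libraries held at least 1 read of *Fkbp5*. Mouse 267 of Co inject (5.05) and mouse 79 of MS inject (2.05) held only 1 read each. That is within the limit of 3 reads that a count of 0 allows. Among naive libraries, 5 were at 0, namely 4 of MS naive and 1 of Co naive. The other 4 MS naive libraries ran from 46.8 to 88.6, within the range of the injected groups. Within MS the change was 1.95, and within Co 1.37. The MS minus Co difference was -1.28 in PFC, 1.56 in AMY and 1.36 in BNST. The difference between PFC and the mean of the other two was -2.74 (95% interval -4.86 to -0.62, limma, adjusted p = 0.401).

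Lower in mean in inject, beside *Vhl*, were *Tgfb1* and *Dpm2*. *Tgfb1*, the cytokine TGF-beta 1, had a median of 24.8 in inject (0 to 74.4) and 40.2 in naive (14.8 to 90.4), a difference of -1.28 (SE 0.54, adjusted p = 0.429), and was -0.68 with sample quality weights and -0.67 with a pseudocount of 10. In inject, 4 libraries (3 of MS inject and 1 of Co inject) were at or below 3.7, and all naive libraries were at 14.8 or higher. The Co inject library was mouse 267, at 0 with a limit of 15.2, so it is not set apart from the lowest naive value. *Dpm2*, which regulates the synthesis of dolichol phosphate mannose, had medians of 458 and 635 (-0.34, SE 0.16, adjusted p = 0.488). *Anxa2*, an annexin of endothelial and meningeal cells, had a median of 232 in inject and 127 in naive (0.74, SE 0.39, adjusted p = 0.637). The naive mean is lowered by mouse 109 of MS naive, at 2.95, where the next library of its group was at 63. With the separate ranges of other assays as covariates, the *Anxa2* difference was 1.78 and passed at an adjusted p of 0.0743. These 14 covariates were cut from the values of the same 32 libraries, among them those of *Fkbp5* and *Tgfb1*. That fit tested only the 55 assays without separate ranges, so this pass is no separate support.

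**Figure D3:**
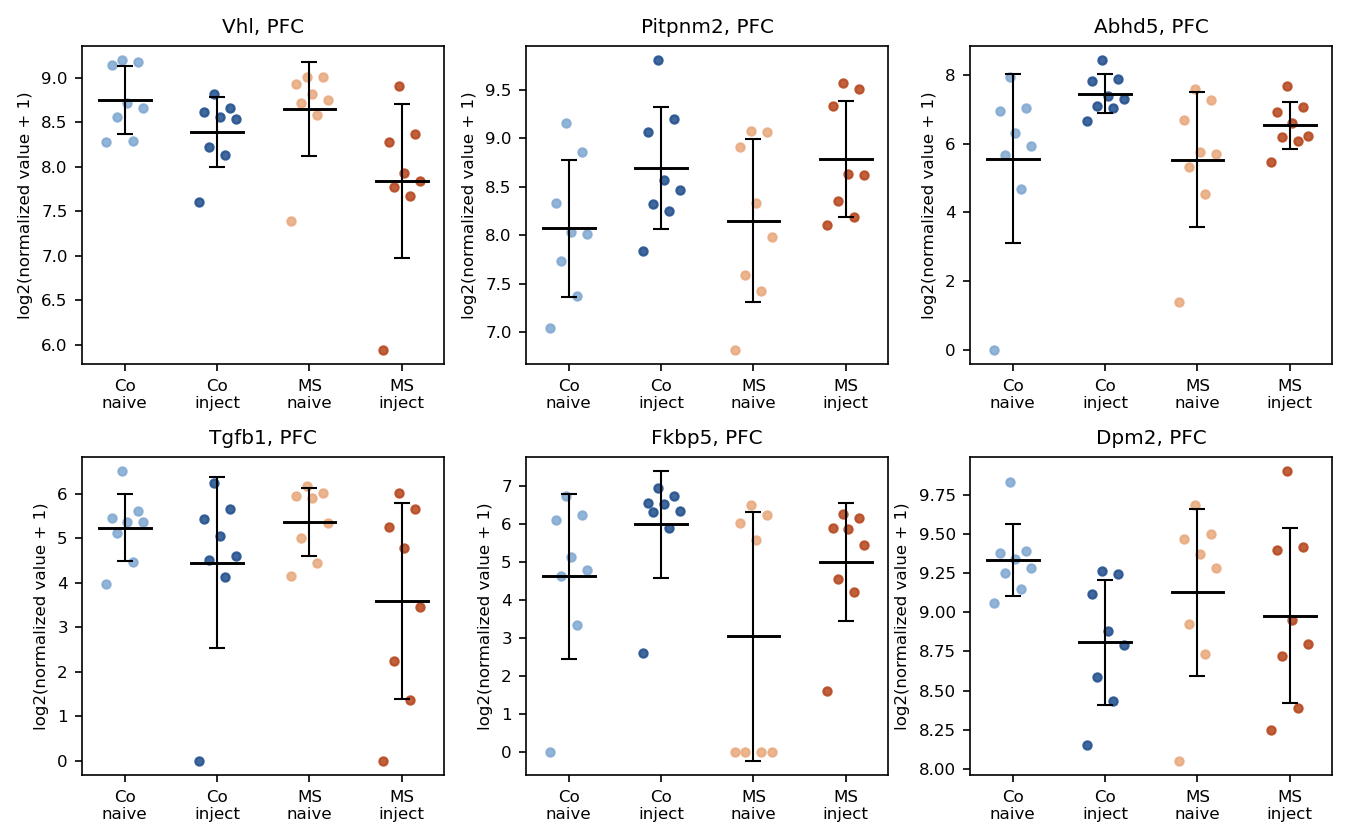
Log2(normalized value + 1) in PFC (y axis) of the 6 assays with the lowest p for injection, by label group (x axis), 1 point per library, with the mean (line) and SD (bar). *Fkbp5* is at 0 in 4 MS naive libraries and 1 Co naive library, and no assay passed the adjusted threshold.

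The interaction asks whether the change from naive to inject differed between MS and Co. None of 69 assays (0%) passed, and 1 had an unadjusted p under 0.05. This was *Cct7*, with medians of 1480 in Co naive and 2123 in Co inject, against 1588 in MS naive and 1500 in MS inject. The 8 Co inject libraries were narrow, from 1667 to 2222. The change was 0.46 in Co and -0.21 in MS, a log2 difference of -0.67 (SE 0.26, 95% interval -1.21 to -0.13, limma, adjusted p = 0.986).

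*Nr3c1* had the second lowest p. Its medians were 210 in Co naive (179 to 255), 271 in Co inject (217 to 333), 232 in MS naive (203 to 271) and 222 in MS inject (24.6 to 332). The change was 0.36 in Co and -0.46 in MS, a difference of -0.82 (SE 0.44, adjusted p = 0.986). The lowest MS inject library was mouse 79, at 24.6. By status *Nr3c1* differed by -0.26 (SE 0.22) and by injection by -0.05 (SE 0.22). Without mouse 79 these values were -0.07 and 0.14, and the interaction was -0.43.

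In *Higd1a*, a mitochondrial protein of the hypoxia response, the change was 0.07 in MS and -0.32 in Co (interaction 0.39, SE 0.22). *Anxa2* changed by 1.38 in MS and 0.10 in Co (interaction 1.28, SE 0.77), and 7 of 8 MS inject libraries lay between 223 and 322. *Cdkn1a*, the inhibitor p21 of the cell cycle, changed by -0.55 in MS and 1.30 in Co (interaction -1.85, SE 1.14). *Mknk2*, a kinase that phosphorylates the translation factor eIF4E, changed by 0.31 in MS and -1.53 in Co (interaction 1.84, SE 1.26). The adjusted p was 0.986 for all 4. Each rested in part on single libraries. The interaction was 0.24 for *Higd1a* without mouse 89 of MS naive, 0.62 for *Anxa2* without mouse 109 of MS naive (2.29 with separate ranges as covariates), -1.001 for *Cdkn1a* without mouse 85 of MS inject (-0.74 with separate ranges as covariates) and 1.21 for *Mknk2* without mouse 107 of MS naive. With a pseudocount of 10 or 0.1, the *Mknk2* interaction was 0.84 or 3.02.

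**Figure D4:**
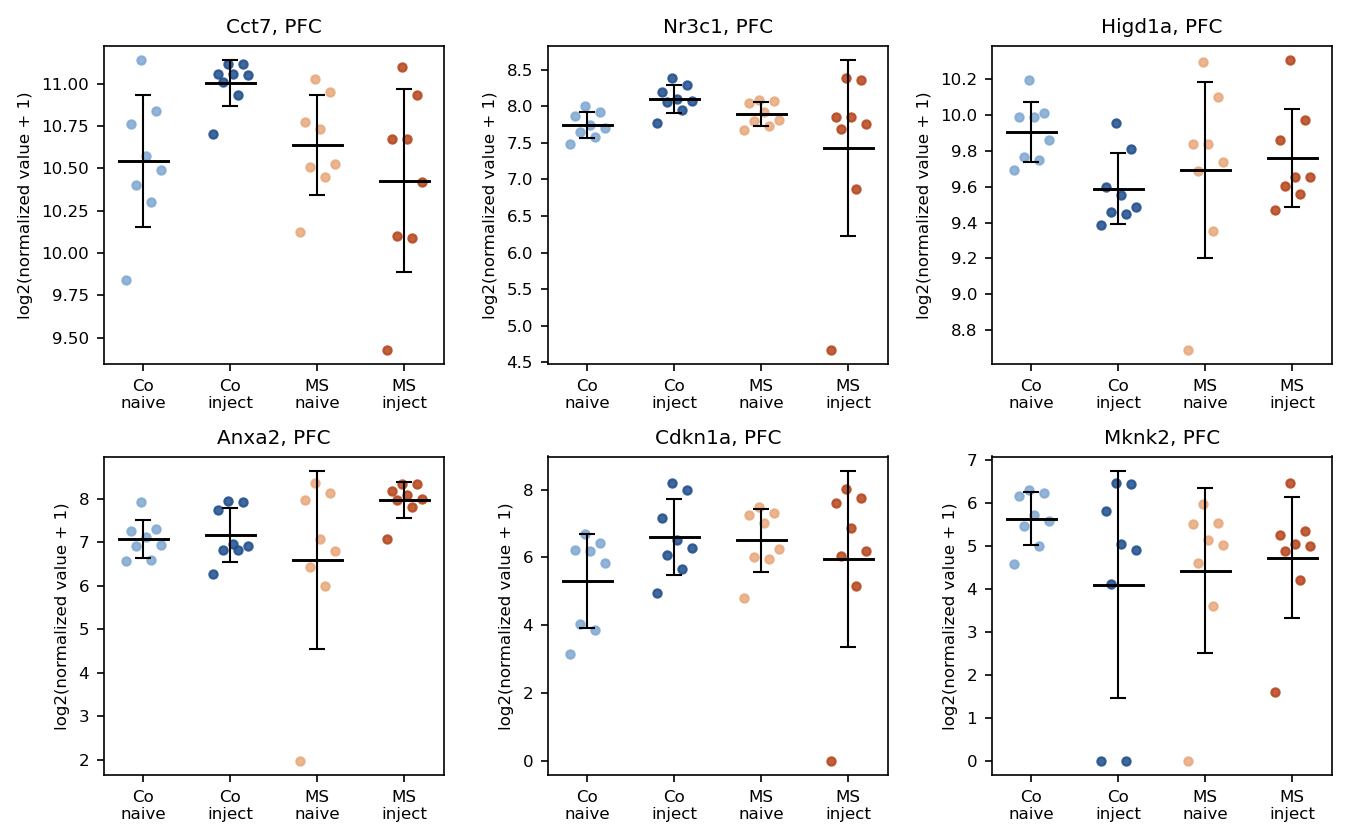
Log2(normalized value + 1) in PFC (y axis) of the 6 assays with the lowest p for the interaction, by label group (x axis), 1 point per library, with the mean (line) and SD (bar). *Cct7* and *Nr3c1* have their highest mean in Co inject, and a single low library widens the SD of *Nr3c1* and *Cdkn1a* in MS inject and of *Anxa2* in MS naive.

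*Hsp90aa1* bounded the differences most tightly among the GR genes. It differed by -0.11 by status (95% interval -0.34 to 0.12) and by 0.01 by injection (-0.22 to 0.25). Over the 59 assays with a median of at least 30, the 95% interval lay within a 2-fold change either way for 42 assays by status, 41 by injection and 26 for the interaction. For a 1.5-fold change the counts were 33, 31 and 7. The median half-width of the interval was 0.82 for the interaction and 0.41 for both main terms. A p that misses the threshold does not show that the groups were alike.

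**Figure D5:**
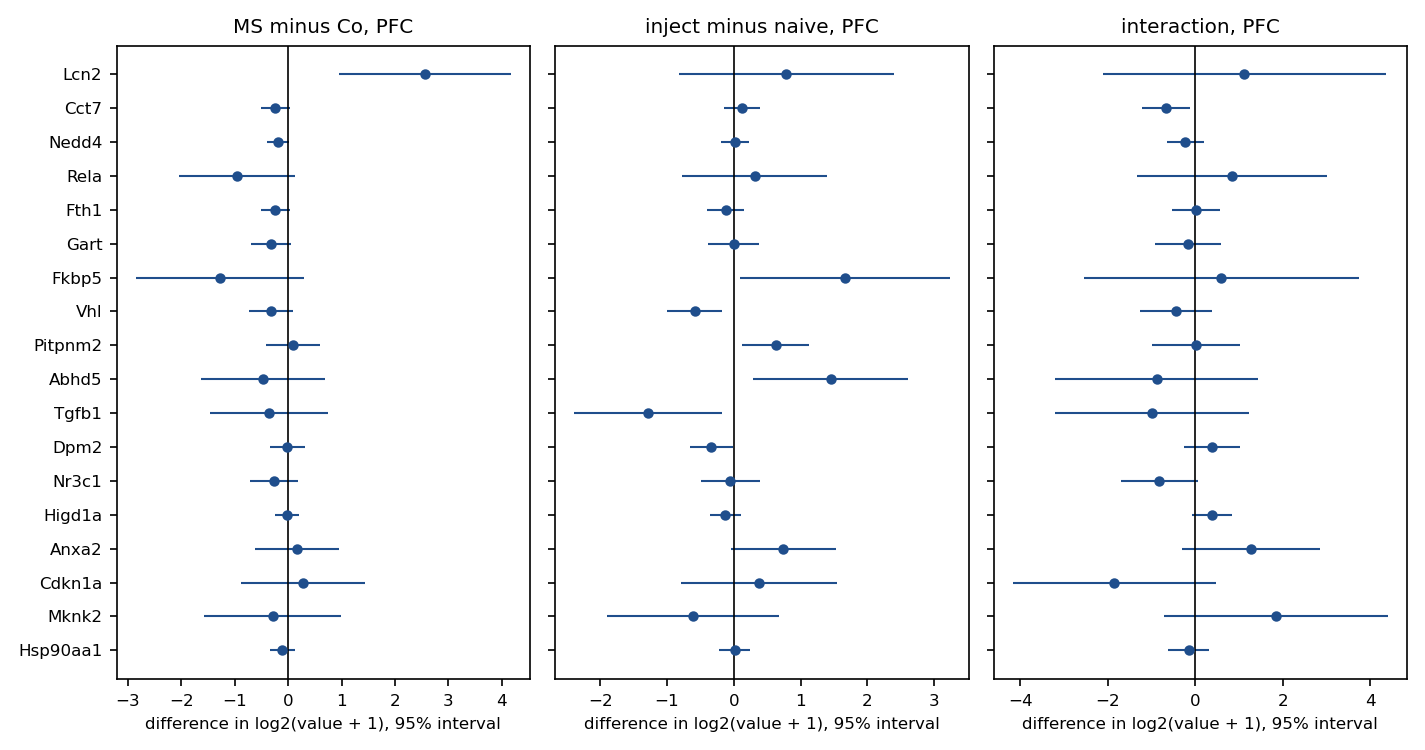
Differences in log2(value + 1) (x axis) with 95% intervals (bars) for 18 named assays (y axis) in PFC, for MS minus Co, inject minus naive and the interaction. The interval of *Lcn2* by status lies above 0, from 0.95 to 4.18, and the interaction intervals are the widest.

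No gene list had a member that passed in any term. By status, the 4 GR and chaperone genes measured (*Nr3c1*, *Hsp90aa1*, *Fkbp5* and *Cct7*) all had lower means in MS on the deposited scale, but *Hsp90aa1* was at 0.0061 after rescaling to the same total and *Nr3c1* at 0.19 with separate ranges as covariates. Their median was -0.25 beside -0.03 over all 69 assays, of which 27 were higher and 41 lower in MS. That rescaling moved the median of all assays by status to 0.08, so the counts by status below hold for the deposited scaling. By injection, 3 of these 4 had higher means in inject (median 0.07 beside -0.0019), where 33 of all 69 assays were higher and 35 lower. The counts of the other lists are given as a description beside these. Of 5 assays of cytosolic translation, 2 had higher means in MS and 2 in inject. For 5 mitochondrial assays these counts were 2 and 3, for 7 ubiquitin and proteasome assays 4 and 5, and for 9 of RNA processing and transcription 6 and 4. Purine, heme and iron metabolism had 1 and 1 of 4, transporters 0 and 1 of 3, lipid and glycan handling 2 and 3 of 6, and cell cycle and survival signalling 2 and 2 of 6. Of the 5 immune markers, 2 had higher means in MS and 3 in inject, and both vascular or meningeal markers had higher means in MS and in inject. The medians of these other lists ran from -0.28 (immune markers) to 0.41 (vascular or meningeal markers) by status. The first of these is the value of *Tnf*, which was read in 1 library, mouse 229 of Co naive (20.9).

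In 14 assays the PFC libraries fell into separate ranges, separated by a gap wider than 1 in log2(value + 1) that held no library, with 4 or more libraries on either side. The lower range was at or near 0 in each. In *Fkbp5*, *Lrrc25*, *Zfp553*, *Fan1* and *Mob3a* the upper range began at 1 to 3 reads, within the limit that a count of 0 allows, so the gap in these 5 is set by counting and by the pseudocount. In the other 9 the upper range began above 3 reads. *Rbm4*, a splicing regulator, was at 0 in 4 libraries and at 29.3 to 487 in the other 28. *Zfp641*, a zinc finger protein, was at 0 in 9 libraries and at 13.6 to 172 in 23. *Zap70*, a kinase of the T cell receptor, was at 0 in 10 of 16 MS and 5 of 16 Co libraries, and at 10.1 to 90.7 in the others. *Slc7a7*, an amino acid transporter, was at 0 in 13 libraries and at 10 to 93 in 19. *Rfx5*, *Thbs1* and *Mknk2* were split in the same manner, beside *Lcn2* and *Tgfb1*. The median depth was lower on the side of the lower range in 12 of these 14 assays.

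Finally, the levels in PFC were set against those of AMY and BNST from the same mice. Against AMY, 0 of 69 assays (0%) passed, and the lowest adjusted p was 0.815. Against BNST, 1 of 69 (1.45%) passed. *Fth1* had a median of 36965 in PFC and 50674 in BNST, a log2 difference of -0.41 (SE 0.09, limma, adjusted p = 0.00126). With the mouse as a replicate block, 2 assays passed, *Fth1* (-0.43, adjusted p = 0.0027) and *Pitpnm2* (0.57 higher in PFC, adjusted p = 0.041). When all libraries were rescaled to the same total, the median difference of all assays moved from -0.01 to 0.16, and 10 assays passed, 9 higher and 1 lower in PFC, where the deposited scaling gave 0 higher and 1 lower. *Fth1*, the most abundant assay, was lower in PFC under both. The status and injection differences in PFC were also set against the mean of those in AMY and BNST. In each case 0 of 69 assays (0%) passed, with the lowest adjusted p at 0.186 for *Nedd4* by status and at 0.383 by injection, where *Abhd5* and *Anxa2* led.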

How the data were processed

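Micropunches of frozen brain were profiled with TruSeq Targeted RNA sequencing. Reads were filtered by the authors (PRINSEQ lite), aligned to the assay manifest (BWA) and normalized (DESeq2); the labels name the build mm10. The deposited values are a signal, namely reads per assay divided by the size factor of the library. In each library every value is a whole multiple of 1 step (largest deviation 2.91e-10 reads), from which depth was computed. A count test was not run, since the table holds 69 assays per library, too few low values for the reads to be checked as recovered. The study's 5 surrogate variables were not used here. All 69 symbols matched GENCODE M21 (GRCm38), and capital symbols were written as mouse symbols.

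Values were transformed to log2(value + 1). limma 3.58.1 (R 4.3.3) was fitted to the 32 PFC libraries with status, injection and their interaction, with Benjamini-Hochberg adjustment over all 69 assays and a threshold of 0.1. The assay without a read in PFC stayed in the fit. PFC was compared with AMY (32 libraries) and BNST (31) with the label terms as covariates. Numbers mark the same mice across regions, and deviations of the same mouse correlated with a median r of 0.05 (AMY) and 0.08 (BNST). No sequencing batch is given for PFC. Replicates are separate mice. The steps were tested on simulated data. Permutation tests used scipy 1.17.1 and figures matplotlib 3.10.9, under Python 3.11.15. Genes were named by a rule: those called, the 6 with the lowest p per term among assays with a median of at least 30, those with separate ranges, *Nr3c1*, *Hsp90aa1*, *Cdkn1a*, and the extremes of level. Members and lists were chosen with earlier results of these data known. Alternatives were other pseudocounts, a mean of at least 10, 5 principal components of the residuals, log2 reads as a covariate, rescaled totals, quality weights, separate ranges as covariates, an adjusted p of 0.05, the orthologues over 2000 reads, the mouse as a block and leaving out each library. A further 2 were added after seeing the data: leaving out the 3 libraries under 50000 reads, and leaving out the assay at 0 in every library.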

Additional observations from a re-analysis of the deposited data

Results flagged for a closer look

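Of 76 sets of 8 libraries examined, 16 had a highest or lowest library set apart. Its distance to its nearest neighbour exceeded 0.526 of the range, on the log2 scale for assays. This cutoff flags about 1 in 20 groups only where values are normally distributed. The sets share the same mice and some hold values at 0, so the count of 16 is not set against that rate. Mouse 267 of Co inject, the shallowest library, was the lowest of its group in *Cct7* (1667, next 1955), *Fkbp5* (5.05, next 58.2) and *Tgfb1* (0, next 16.4). Mouse 79 of MS inject, with 59297 reads, was the lowest in *Fkbp5* (2.05, next 17.5), *Nr3c1* (24.6, next 116), *Anxa2* (133, next 223) and *Mknk2* (2.05, next 17.5). Mouse 107 of MS naive was the lowest in *Vhl* (167, next 382) and *Mknk2* (0, next 11.1).

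Single values set apart were *Vhl* at 60.8 in mouse 81 of MS inject (next 203), *Cdkn1a* at 0 in mouse 85 of MS inject (next 34.9), *Rela* at 0 in mouse 87 of MS naive (next 30.1) and *Anxa2* at 2.95 in mouse 109 of MS naive (next 63). In Co naive, *Abhd5* was at 0 in mouse 241 (next 24.9) and *Dpm2* at 913 in mouse 229 (next 669). *Lcn2* was at 19.6 in mouse 243 of Co inject, where the other 7 libraries were at 0.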

How the results depend on the processing

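The counts of assays called held in most alternatives. By status, 2 assays were called with 5 principal components (*Lcn2* and *Zap70*), and 0 to 1 when single libraries were left out. By injection, 1 was called with separate ranges as covariates (*Anxa2*, 1.78, adjusted p = 0.0743), and 0 to 1 without single libraries (*Vhl*). For the interaction, 1 was called with 5 principal components (*Zfp641*). These components came from the residuals of the same fit, so they reduce the residual spread by construction. The separate ranges gave 14 covariates, cut from the values of the same libraries, and only the 55 other assays were tested with them. Against BNST, 2 assays were called with the mouse as a replicate block, 3 with a pseudocount of 10, 3 among assays with a mean of at least 10, and 10 after rescaling. The block changed no other call. The spread by injection gave 1 call with a pseudocount of 0.1. The cause of these changes was not tested. Rescaling moved the median of all assays by status from -0.03 to 0.08.

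Some values that had not passed changed sign. With separate ranges as covariates, *Nr3c1* was at 0.19 by status and 0.33 by injection, *Cdkn1a* at -0.32 by status and *Hsp90aa1* at 0.11 for the interaction. With quality weights, *Nr3c1* was at 0.0701 by injection. After rescaling, *Hsp90aa1* was at 0.0061 by status. Without single libraries, *Nr3c1* by injection ran from -0.12 to 0.14 and *Hsp90aa1* from -0.0282 to 0.0676. On the log2 scale, reads were 0.0652 higher in MS (permutation p = 0.757). At 8 libraries per group and these depths, a 1.5-fold change either way lay outside the 95% interval for 33 of the 59 assays with a median of at least 30 by status, 31 by injection and 7 for the interaction.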
